A study of Mus musculus with 4 samples.

Results

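The genes described here were 10 genes of the unfolded protein response, chosen by symbol from the 23337 genes of the count tables, and all 10 were counted in every sample and passed the filter on low counts. RNA-seq was performed on fluorescent cells sorted from regenerated olfactory epithelium of 4 mice of mixed background, 1 mouse per sample. The 2 mutant mice were K5Cre;Lmnb1 fl/fl with a Cre-dependent tdTomato reporter, and the 2 control mice were K5Cre;Lmnb1 fl/+ with the same reporter. Their sorted fluorescent cells are taken by the paper as Lmnb1-/- and Lmnb1+/-. Control cells thus also carried Cre, the reporter and a single deleted Lmnb1 allele. All mice were adults, all received 50 mg/kg methimazole, a drug that destroys the epithelium, and all were sampled after 4 weeks of recovery. Per the series' design text, experimental groups 1 and 2 were unlike in treatment, parents, age and sex, and each held 1 control and 1 mutant matched for these and for preparation and sequencing. The Keratin 5 promoter drives Cre in horizontal basal cells, the reserve stem cells of the epithelium, so a sort for Tomato collects these cells and whatever they regenerated, including neurons and supporting cells.

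Cells answer unfolded protein in the endoplasmic reticulum (ER) through 3 membrane sensors. PERK, encoded by Eif2ak3, phosphorylates the translation initiation factor eIF2α, which lowers general translation but favours translation of mRNAs such as Atf4 and Atf5. IRE1, encoded by Ern1, splices Xbp1 mRNA, and ATF6 is cleaved to release a transcription factor. BiP, encoded by Hspa5, is the major chaperone of the ER lumen and binds the sensors. In olfactory sensory neurons, production of the first odorant receptor protein is known to engage PERK and translation of Atf5. This leads to Adcy3 expression, loss of the histone demethylase Lsd1 (Kdm1a) and a stable receptor choice. Counts of mRNA do not report phosphorylation, translation or Xbp1 splicing, so the values below concern transcript levels only.

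The promoters of 4 of the genes are shown because they carry, or in the case of Eif2ak3 lack, textbook response elements within the window searched. Each sequence is the 120 bases before the RefSeq start in GRCm38.p6, read in the direction of the gene, with the letters at the fixed positions of a motif in capitals, including the single differing letter in Ddit3. The ER stress element was searched as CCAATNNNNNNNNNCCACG and the cyclic AMP response element, bound by factors of the ATF and CREB family, as TGACGTCA, both on either strand.
Hspa5 (chr2:34771970-34772089, plus strand): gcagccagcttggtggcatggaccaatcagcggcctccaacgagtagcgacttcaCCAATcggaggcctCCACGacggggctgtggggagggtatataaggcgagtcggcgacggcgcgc
Ddit3 (chr10:127290673-127290792, plus strand): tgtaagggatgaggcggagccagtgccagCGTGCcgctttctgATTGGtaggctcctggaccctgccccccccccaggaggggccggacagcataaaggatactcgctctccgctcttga
Ppp1r15a (chr7:45526269-45526388, minus strand): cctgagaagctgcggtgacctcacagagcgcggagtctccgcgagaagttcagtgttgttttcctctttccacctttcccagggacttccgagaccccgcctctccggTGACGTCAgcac
Eif2ak3 (chr6:70844395-70844514, plus strand): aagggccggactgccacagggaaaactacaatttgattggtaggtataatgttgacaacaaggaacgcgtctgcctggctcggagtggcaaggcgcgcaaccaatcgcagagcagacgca
Of the 10 genes, 9 had windows of 250 bases before to 50 bases after the start, Atf5 with a pair of them. Hspa5 held the complete ER stress element at bases -65 to -47, a match found in 0.119% of 32851 promoter windows of the genome. Ddit3 held it on the minus strand at -91 to -73 with 9 of 10 fixed letters, a looser match found in 1.5% of windows. Ppp1r15a held the cyclic AMP response element at -12 to -5 (1.79% of windows). Trib3 held TTNCATCA, the core of an amino acid response element, just after its start (3.97% of windows). The element TGACGTGG was found in none of the 9 genes and in 0.676% of windows. These matches are descriptions of letters and not of bound factors.

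Gene counts totalled 14833396 to 23704638 per library, and 3 counts correspond to 0.127 to 0.202 CPM (counts scaled to library size). Lmnb1 itself had 477 and 395 counts in controls 1 and 2 and 326 and 149 counts in mutants 1 and 2 (log2 fold change -0.72 ± 0.31 SE, adjusted p = 0.195, edgeR likelihood-ratio test), counted over the whole gene and not only over the floxed exon. By PCR of exons outside the floxed one, the paper reported depletion of the Lmnb1 transcript in sorted mutant cells. It also reported that most Tomato-positive mutant cells lacked lamin B1 staining. Mutant 1 stood apart, with 1603 genes at 0 counts against 5173 to 6053 in the other libraries and 39.4% of its uniquely aligned reads outside genes against 22.1 to 24.9%. Markers of mature olfactory sensory neurons summed to 18836 and 8351 CPM in controls 1 and 2 and to 10186 and 2401 CPM in mutants 1 and 2, and all 12 fell in the mutants. Markers of sustentacular cells, the supporting cells, summed to 7857, 16431, 10099 and 20446 CPM in the same order. Neuron markers were therefore higher in experimental group 1 and sustentacular markers higher in experimental group 2, in both genotypes. In such bulk samples, fewer cells of a type and less RNA per cell cannot be told apart.

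Per kilobase of exon, the 10 genes spanned a wide range of levels. Atf5 was the most abundant, at 474.7 and 308.0 TMM-scaled CPM per kilobase in controls 1 and 2 and 315 and 159 in mutants 1 and 2, and its mean lay at the 99.2 percentile of 15260 genes with a length. It was followed by Hspa5 (mean 145 CPM per kilobase), Atf4 (117) and Xbp1 (99.0). Ppp1r15a (41.8), Ddit3 (24.0) and Trib3 (19.5) were intermediate. The 3 sensors were the least abundant, with means of 12.4 for Atf6, 9.33 for Eif2ak3 and 4.26 for Ern1. The ranges of neighbours in this order overlapped over the 4 samples, except for Xbp1 above Ppp1r15a and Eif2ak3 above Ern1. Within a sample, neighbours changed order only in mutant 2. There Hspa5 (172) exceeded Atf5 (159) and Xbp1 (121) exceeded Atf4 (120). Mean levels of the downstream factors and the chaperone thus lay above those of the sensors. With the longest transcript as the length, Xbp1 (151 CPM per kilobase) stood above Atf4 (137).

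Mutant and control cells were compared to ask whether loss of Lamin B1 altered these transcripts. Of the 10 genes, Eif2ak3 and Ddit3 were downregulated in the mutant and none was upregulated at an adjusted p of 0.05 (edgeR likelihood-ratio test), whereas 4.30% of the 15438 genes tested were lower and 1.28% higher. Both genes lie on the PERK arm. At an unadjusted p under 0.05, 5 of the 10 were lower and 0 higher, in this test (9.62% of all genes lower) and in the edgeR quasi-likelihood test (10.5%), and all 5 were among the 6 PERK arm genes. The median log2 fold change was -0.43 over the 10 genes and -0.0086 over all genes tested, and the former was -0.23 without mutant 1 and without the block. It was -0.56 over the 6 genes of the PERK arm and -0.13 over the 4 genes of the IRE1 and ATF6 arms and BiP. All values below are TMM-scaled CPM, that is gene counts scaled to library size and adjusted for library composition, and tests are the edgeR likelihood-ratio test with experimental group as a block and Benjamini-Hochberg adjustment over all genes tested.

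**Figure D1:**
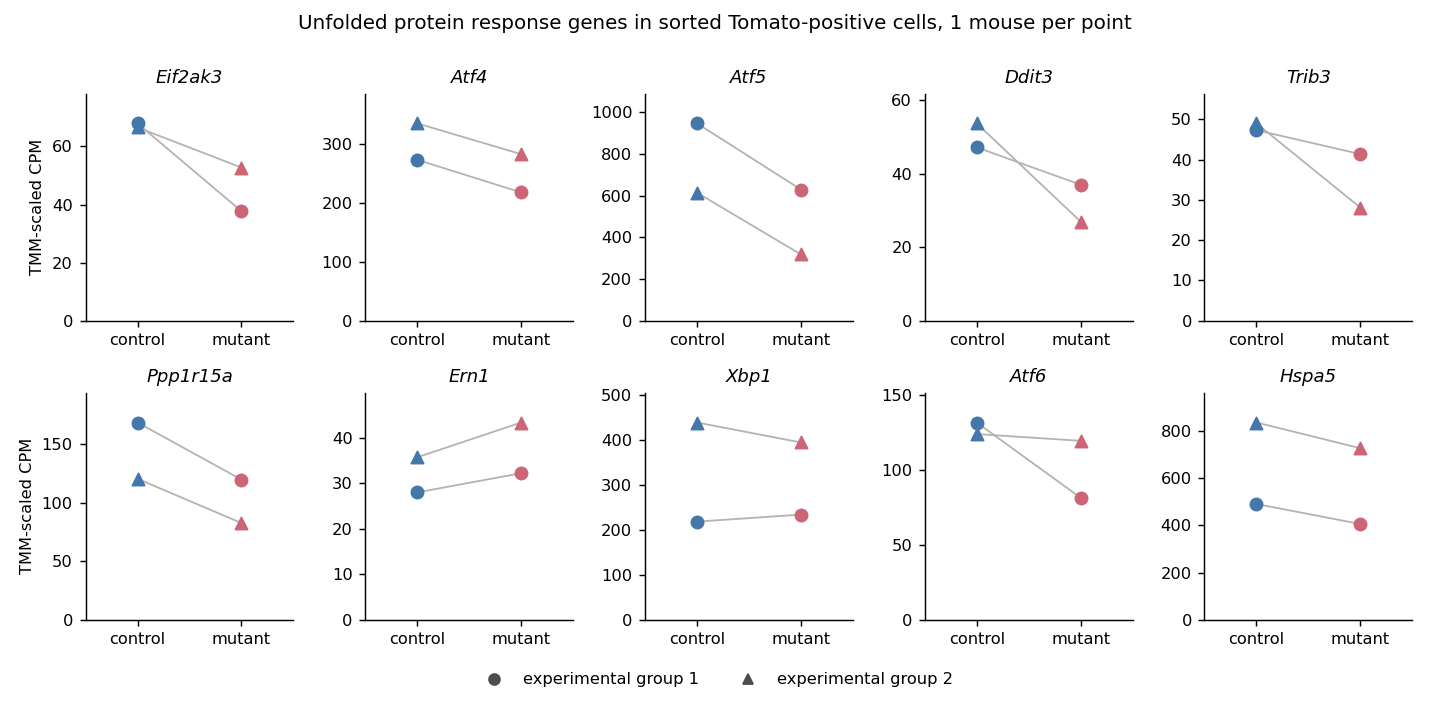
TMM-scaled CPM (y axis, from 0) of the 10 genes in the control and mutant samples, 1 point per mouse, circles for experimental group 1 and triangles for experimental group 2, with lines joining the matched mice. Lines slope down for Eif2ak3 (67.9 to 37.7 and 66.5 to 52.7) and Ddit3 (47.1 to 36.9 and 53.6 to 26.9), whereas Xbp1 and Hspa5 are separated by experimental group.

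Eif2ak3 (ENSMUSG00000031668.14, chr6:70844515-70905245, plus strand, mm10), the PERK kinase, had 67.9 and 66.5 CPM in controls 1 and 2 and 37.7 and 52.7 CPM in mutants 1 and 2. The controls were close to each other and both mutants lay below them, mutant 1 furthest. Its log2 fold change was -0.59 ± 0.19 (SE, n = 2 per genotype), a level 33.7% lower in the mutant (edgeR adjusted p = 0.0315). Within experimental groups 1 and 2 the log2 ratios of mutant to control were -0.85 and -0.34. The decrease was therefore seen in both matched pairs and was deeper in the pair that holds mutant 1, the library with many reads outside genes. Without that library, and without the block, the log2 fold change was -0.35.

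Ddit3 (ENSMUSG00000025408.15, chr10:127290774-127296288, plus strand) encodes CHOP, the transcription factor of prolonged PERK signalling. It had 47.1 and 53.6 CPM in the controls and 36.9 and 26.9 CPM in the mutants. Again both mutants lay below both controls, but mutant 2 was the lowest. The log2 fold change was -0.67 ± 0.21 (edgeR adjusted p = 0.0327), with ratios of -0.35 and -0.99 in experimental groups 1 and 2, and it was -0.42 without mutant 2 and without the block. For Eif2ak3 the pair of experimental group 1 thus differed more, and for Ddit3 the pair of experimental group 2. Whether the genotype difference itself differed between experimental groups could not be tested with 1 mouse per genotype in each. Exons of Eif2ak3, Ddit3 and Atf5 share 8.05, 3.97 and 4.11% of their length with genes on the other strand, and reads there are uncertain because the strand setting of the counting is not given in the sources used here.

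The direct PERK targets at the translational level, Atf4 and Atf5, were each lower in the mutant of both experimental groups. Neither passed the edgeR likelihood-ratio test, and their fold changes were not tested against each other. Atf5 (chr7:44812256-44816658, minus strand), the factor engaged by receptor expression in olfactory neurons, had 946 and 614 CPM in the controls and 629 and 317 CPM in the mutants. Within each experimental group the mutant was lower, with log2 ratios of -0.59 and -0.95, but mutant 1 exceeded control 2, so that the genotypes overlapped. Its log2 fold change of -0.77 ± 0.26 was not past the threshold (edgeR adjusted p = 0.0602), and it ran from -0.28 without mutant 2 to -1.30 without mutant 1, both without the block. Atf4 (chr15:80255184-80257541, plus strand), the general effector of eIF2α phosphorylation, had 273 and 335 CPM in the controls and 217 and 282 CPM in the mutants. The genotypes overlapped here as well, and the log2 fold change of -0.29 ± 0.22 (95% interval -0.72 to 0.15, edgeR adjusted p = 0.616) did not pass the test.

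Genes that act downstream in this arm gave values of the same sign. Ppp1r15a encodes GADD34, which returns the phosphatase to eIF2α and so ends the response, and had 168.6 and 120.5 CPM in the controls and 119.8 and 82.7 CPM in the mutants. Mutant 1 and control 2 were almost equal, while the ratios within experimental groups were alike at -0.49 and -0.54. The log2 fold change was -0.52 ± 0.18 (edgeR adjusted p = 0.0673). Trib3, a pseudokinase induced by ATF4 and CHOP, had 47.3 and 49.0 CPM in the controls and 41.4 and 28.1 CPM in the mutants. Only mutant 2 was far from the controls, and the log2 fold change of -0.49 ± 0.21 did not pass the test (edgeR adjusted p = 0.172). Without mutant 2 and without mutant 1, both without the block, the values were -0.19 and -0.78 for Trib3 and -0.24 and -0.81 for Ppp1r15a. All 6 PERK arm genes were lower in the mutant of both experimental groups.

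**Figure D2:**
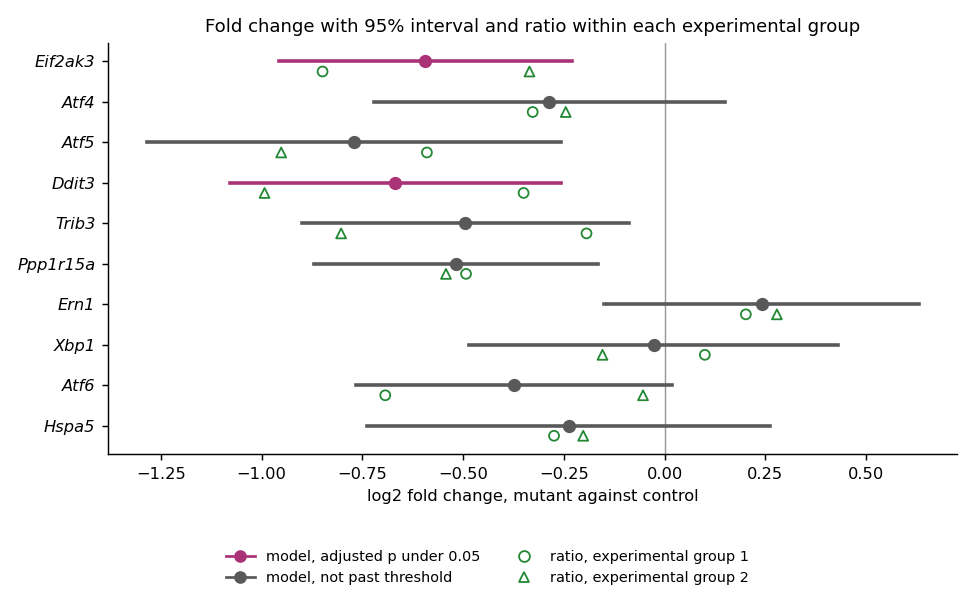
Log2 fold change of mutant against control (x axis) for the 10 genes, with filled points for the model, bars for its 95% interval, and open symbols for the ratio within each experimental group. Eif2ak3 (-0.59) and Ddit3 (-0.67), in purple, passed the threshold, and the 6 PERK arm genes at the top have both open symbols below 0.

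Which PERK arm gene passed depended on the test. The edgeR quasi-likelihood test called Atf5 alone of the 10 genes (adjusted p = 0.0184), where it called 3.20% of all genes lower, and gave 0.0792 for Eif2ak3 and 0.0880 for Ddit3. DESeq2 called Atf5 (adjusted p = 9.45e-06) and Ppp1r15a (adjusted p = 0.0404), with 5.63% of 9452 genes lower, and gave 0.120 for Eif2ak3 and 0.131 for Ddit3. The fold changes hardly moved between these tests, from -0.59 to -0.58 for Eif2ak3 and from -0.77 to -0.76 for Atf5. Other scalings and filters called 0 to 3 of the 10 genes lower: 2 with RLE factors (4.20% of all genes lower), 0 with upper-quartile factors (3.36%), 1 with no filter (2.31%), 3 with CPM over 1 in all 4 samples (5.14%), 2 with the tally lines kept (4.61%) and 3 after thinning (4.27%). Without the experimental group as a block, 0 of the 10 genes had an adjusted p under 0.05 (0.00% of all genes lower) or an unadjusted p under 0.05 (1.22%). Leaving out a single library, again without the block, called 0 of the 10 genes and between 0.00648 and 0.0389% of all genes lower.

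**Figure D3:**
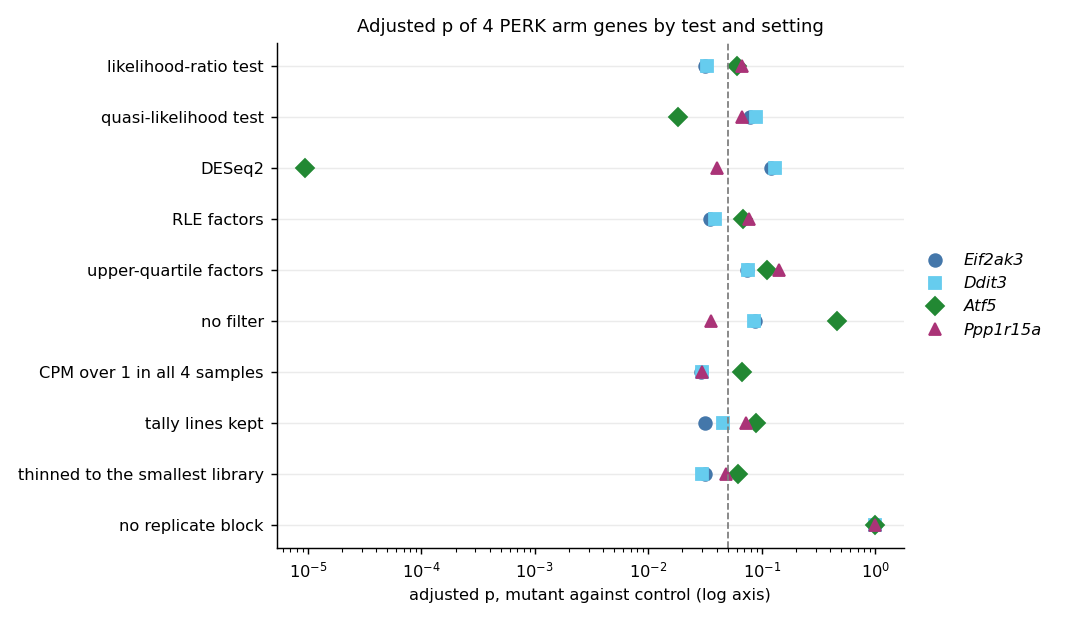
Adjusted p for mutant against control (x axis, log scale) of 4 PERK arm genes under each test, scaling and filter (rows), with the dashed line at 0.05. Atf5 runs from 9.45e-06 with DESeq2 to 1.00 without the block, and no gene is left of the line in every row.

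Of the 4 genes of the IRE1 and ATF6 arms and BiP, 0 passed the edgeR likelihood-ratio test, the quasi-likelihood test or DESeq2, and 0 had an unadjusted p under 0.05. Ern1, the IRE1 sensor, had 27.96 and 35.7 CPM in the controls and 32.2 and 43.3 CPM in the mutants. It was the single member with a positive log2 fold change (0.24 ± 0.20, 95% interval -0.15 to 0.63, edgeR adjusted p = 0.647). Xbp1, its splicing target, had 218 and 439 CPM in the controls and 234 and 394 CPM in the mutants. Both samples of experimental group 2 exceeded both samples of experimental group 1, and genotype gave a log2 fold change of -0.027 ± 0.23 (95% interval -0.48 to 0.43, edgeR adjusted p = 0.986).

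Atf6, the third sensor, had 131.9 and 124.1 CPM in the controls and 81.5 and 119.6 CPM in the mutants. Mutant 1 was low, while mutant 2 was just below the controls, and the log2 ratios were -0.69 and -0.053 in experimental groups 1 and 2. The log2 fold change was -0.37 ± 0.20 (95% interval -0.77 to 0.019, edgeR adjusted p = 0.358). Hspa5 had 490 and 835 CPM in the controls and 406 and 726 CPM in the mutants. Its log2 fold change was -0.24 ± 0.26 (95% interval -0.74 to 0.26, edgeR adjusted p = 0.755). Within experimental groups 1 and 2, its log2 ratios were -0.27 and -0.20. Without the block, its log2 fold change became 0.13 without mutant 1 and 0.25 without control 2. Those fits do not separate genotype from experimental group. Over all 10 genes, both mutants lay below both controls in 5 (Eif2ak3, Ddit3, Trib3, Ppp1r15a and Atf6), against 13.3% of all genes tested. The mutant was lower in both experimental groups in 8, against 32.9%. The separation of mutants from controls was narrow for Ppp1r15a, with 119.8 CPM in mutant 1 and 120.5 CPM in control 2.

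Of the 10 genes, 4 differed between the experimental groups, where 31.6% of all genes tested differed, so this share was near that over all genes. In experimental group 2, Xbp1 (log2 fold change 0.88 ± 0.23, edgeR adjusted p = 0.00123) and Hspa5 (0.80 ± 0.26, edgeR adjusted p = 0.00805) were higher than in experimental group 1, where 17.7% of all genes tested were higher. Atf5 (-0.80 ± 0.26, edgeR adjusted p = 0.0104) and Ppp1r15a (-0.51 ± 0.18, edgeR adjusted p = 0.0188) were lower, where 14.0% of all genes were lower. Treatment, parents, age and sex, and sample preparation and sequencing, which were shared within an experimental group, cannot be told apart in this contrast. The HTSeq tally lines held 76.1 and 77.7% of the total in control 1 and mutant 1 and 45.4 and 43.1% in control 2 and mutant 2. Summed neuron markers were also higher in experimental group 1 and summed sustentacular markers in experimental group 2, and their part in these differences was not tested.

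Among 103 further pathway genes tested, 1 was lower and 3 were higher in the mutant, with a median log2 fold change of -0.11. Of all genes tested, 4.30% were lower and 1.28% higher. Dnajb9, an ER co-chaperone (ERdj4) induced by XBP1, fell in the mutants to 45.4 and 58.6 CPM, against 74.1 and 90.2 CPM in control cells (log2 fold change -0.67 ± 0.17, edgeR adjusted p = 0.00273). It was the single gene called of 31 XBP1 targets and genes of ER-associated degradation (median -0.065). It remained called in the quasi-likelihood test (adjusted p = 0.0291) and DESeq2 (adjusted p = 0.0262). Vcp, the segregase of that pathway and the most abundant of its list, had 693 and 726 CPM in the controls and 593 and 761 CPM in the mutants. Of 22 ER chaperones and folding enzymes, 0 were called by either edgeR test or DESeq2, 3 were lower at an unadjusted p under 0.05 (edgeR likelihood-ratio test), and the median was -0.13, with 18 negative. P4hb, the most abundant of them and a disulphide isomerase, had a log2 fold change of 0.14 ± 0.27.

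Of 33 targets of ATF4 and CHOP, 2 rose and 0 fell in the edgeR likelihood-ratio test, and the median was -0.13. At an unadjusted p under 0.05 in that test, 3 were lower and 3 higher, where 9.62% of all genes were lower. The quasi-likelihood test and DESeq2 each called 0 lower and 1 higher. The 2 genes that rose encode enzymes of serine synthesis from glycolytic intermediates. Phgdh rose in the mutants to 132.1 and 108.9 CPM, against 92.6 and 71.5 CPM in control cells (log2 fold change 0.56 ± 0.18, edgeR adjusted p = 0.0331). Psat1 rose from 50.7 and 53.3 CPM to 68.3 and 79.6 CPM (0.50 ± 0.17, edgeR adjusted p = 0.0472), a call lost in the quasi-likelihood test (0.0761) and DESeq2 (0.133). Thus both mutants exceeded both controls for these enzymes, the opposite direction to Eif2ak3 and Ddit3. Cebpg, a bZIP partner of ATF4 and the most abundant of the list, had 256 and 354 CPM in the controls and 209 and 270 CPM in the mutants, with a log2 fold change of -0.34 ± 0.22.

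Of 17 other sensors and regulators, Eif2ak4 alone was called in the edgeR likelihood-ratio test. It encodes GCN2, the eIF2α kinase that senses amino acid shortage, and had 7.69 and 17.0 CPM in the controls and 21.0 and 24.3 CPM in the mutants. Control 1 was far below the other samples, and the log2 ratios within experimental groups 1 and 2 were 1.44 and 0.51. The log2 fold change was 0.98 ± 0.32 (edgeR adjusted p = 0.0497), and the call was lost in the quasi-likelihood test (0.105) and DESeq2 (0.107). Without the block, the value was 0.42 without control 1 and 1.60 without control 2. Tmbim6, an inhibitor of ER stress-induced death and the most abundant of this list, had 2129 and 1425 CPM in the controls and 1581 and 1171 CPM in the mutants and was not called (edgeR adjusted p = 0.636). DESeq2 called it lower (adjusted p = 0.0452), together with Ppp1r15b, the constitutive relative of Ppp1r15a, which is named here after its values were seen.

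**Figure D4:**
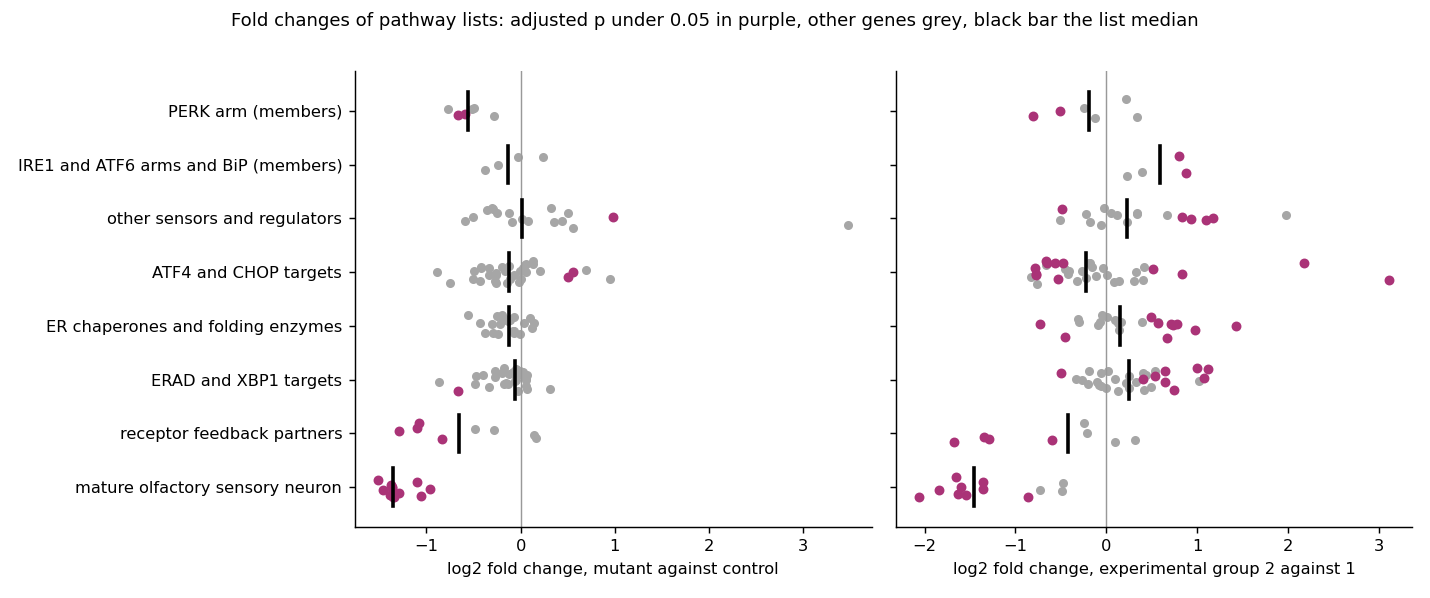
Log2 fold changes (x axes) of the genes in each list (rows) for mutant against control on the left and experimental group 2 against 1 on the right, each point a gene, purple where adjusted p was under 0.05 and black bars at list medians. On the left the median is -0.56 for the PERK arm, -0.66 for the receptor feedback partners and -1.36 for the mature neuron markers.

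The partners of the unfolded protein response in receptor choice were examined next. Of 8 such genes, 4 fell in the mutant. Adcy3, the adenylyl cyclase of odour transduction that closes the feedback, fell in the mutants to 874 and 223 CPM, against 1745 and 667 CPM in control cells (log2 fold change -1.29 ± 0.28, edgeR adjusted p = 0.000583). The receptor transporters Rtp1 (-1.10 ± 0.26, edgeR adjusted p = 0.00174) and Rtp2 (-1.08 ± 0.27, edgeR adjusted p = 0.00342), which carry odorant receptors to the membrane, fell as well. Reep1, an ER-shaping protein that enhances receptor surface expression, fell by 0.84 ± 0.17 on the log2 scale (edgeR adjusted p = 9.85e-05). Within experimental groups 1 and 2, the log2 ratios were -0.997 and -1.58 for Adcy3 and -0.82 and -1.37 for Rtp1. They were -0.67 and -1.50 for Rtp2 and -0.79 and -0.87 for Reep1. With all 4 samples but without the block, the log2 fold changes were -1.14 for Adcy3, -0.98 for Rtp1, -0.90 for Rtp2 and -0.83 for Reep1. When a library was left out as well, genotype was not separated from experimental group. The value of Adcy3 then ran from -2.43 (without mutant 1) to -0.28 (without control 1, and -0.43 without mutant 2). From without mutant 1 to without mutant 2, Rtp1 ran from -1.96 to -0.37, Rtp2 from -2.04 to -0.24 and Reep1 from -1.18 to -0.51.

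The other 4 genes did not pass the test. Kdm1a, the demethylase Lsd1, had 130.2 and 155.1 CPM in the controls and 137.3 and 177.7 CPM in the mutants (log2 fold change 0.14 ± 0.19, edgeR adjusted p = 0.835). Lhx2, Emx2 and Ldb1, transcription factors and a cofactor bound at receptor enhancers and promoters, had log2 fold changes of -0.28 ± 0.20, -0.48 ± 0.21 and 0.16 ± 0.18. Emx2 and Lhx2 were lower in the mutant of both experimental groups.

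Cell type markers that moved with genotype are given beside these results. Summed markers of globose basal cells and neuronal progenitors were 299 and 274 CPM in the controls and 442 and 498 CPM in the mutants, and 4 of 8 rose. Of the horizontal basal cell markers 2 of 6 rose (5 in DESeq2 and 1 in the quasi-likelihood test), and their sums were 1980 and 1391 CPM in the controls and 2803 and 1843 CPM in the mutants. Immature neuron markers summed to 2816 and 2249 CPM in the controls and 2218 and 1822 CPM in the mutants, and 1 of 9 fell. Ciliated cell markers, with 3 of 4 lower, summed to 251 to 421 CPM in controls and 114 to 293 CPM in mutants. Their median log2 ratios in experimental groups 1 and 2 were -0.54 and -1.04, beside -0.86 and -1.82 for mature neuron markers. Which cells these transcripts came from was not tested. In the edgeR likelihood-ratio test, 0 of the markers of sustentacular cells (9 tested), Bowman's gland (6), leukocytes (12) or plasma and B cells (4) were called, and 1 of 5 of olfactory ensheathing glia fell. At an unadjusted p under 0.05, 1 sustentacular and 1 plasma cell marker were higher, and of the gland markers 1 was higher and 1 lower. DESeq2 called 2 sustentacular and 1 plasma cell marker higher and 1 gland marker lower, and the quasi-likelihood test 1 sustentacular and 1 plasma cell marker higher. Gland markers summed to 1916 and 3401 CPM in controls and 2408 and 3141 CPM in mutants, and plasma and B cell markers to 200 to 325 CPM and 316 to 424 CPM, with Pou2af1, Tnfrsf17 and Cd79a at 0 in some libraries. Sdc1, which other cells also express, gave nearly all of the plasma and B cell sums (279 and 199 CPM in controls and 418 and 312 CPM in mutants) and was the marker called higher, whereas Igj had 39.6 and 0.19 CPM in controls and 0.74 and 1.90 CPM in mutants. Leukocyte markers summed to 732 and 808 CPM in controls and 369 and 851 CPM in mutants, with Cd52 and Cd3e at 0 in some libraries, and Lyz2 alone gave 693 CPM in control 2. Over the 12 leukocyte markers tested, the pairs of experimental groups 1 and 2 had median log2 ratios of opposite sign, -1.69 and 1.10. Csf1r, for example, had 65.4 and 7.95 CPM in controls 1 and 2 and 21.4 and 14.4 CPM in mutants 1 and 2. The part of cell composition in the changes of Eif2ak3, Ddit3 and the other genes was not tested.

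The genes whose pattern over the 4 samples was most like that of Eif2ak3 were Ypel4, Rsbn1l and Apaf1, at Euclidean distances of 0.10, 0.11 and 0.13 on centred log2 CPM. Among 10747 genes with enough reads, Atf6 ranked 24 by closeness to Eif2ak3 (distance 0.23), which was the nearest of the other members. Atf5 and Ddit3 lay further from it, at 1.13 and 0.69. For Ddit3 the nearest genes were Cacnb2, Iqcg and Tbc1d9, at 0.088, 0.10 and 0.10, and Trib3 ranked 50 (0.21). Trib3 was thus the member nearest to Ddit3. These distances rest on 4 samples that share their libraries, so they are given as a description.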

How the data were processed

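RNA-seq was analysed from gene count tables of 4 libraries. Per the study's methods, the authors depleted ribosomal RNA, sequenced single-end reads, removed remaining ribosomal reads with Bowtie2 (2.0.6 per the submitters' processing notes), filtered on base quality, aligned to mm10 with TopHat2 (2.0.7) and deposited raw read counts per gene from HTSeq. The strand setting and annotation release of the counting are not given in the sources used here.

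Library sizes excluded the 5 tally lines of HTSeq, which held 43.1 to 77.7% of each table's total. Genes with CPM over 1 in at least 2 samples were kept (15438) and TMM factors computed. Genotype and experimental group were fitted as terms in edgeR 4.0.16 (R 4.3.3), with likelihood-ratio tests and Benjamini-Hochberg adjustment at 0.05. Experimental groups pair the samples per the labels, and deviations of same-numbered samples correlated at r = 0.522 across genes. Ratios within experimental groups were taken on log2 TMM-scaled CPM with a prior count of 2 and have no test. A permutation test of 2 against 2 cannot give less than p = 0.333. Libraries differed far beyond counting noise (chi-square per degree of freedom at least 51.1), so none was a repeat of another. With 2 mice per genotype and the block in the fit, p-values rest on dispersions shared across genes and on how alike the 2 matched pairs were. They do not measure the spread between mice of a genotype.

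Alternatives were the quasi-likelihood test, DESeq2 1.42.0, other scalings and filters, no block, tally lines kept, thinning to the smallest library, and leaving out libraries. Positions and exon lengths came from GENCODE vM21 (98.05% of symbols matched), and promoters from RefSeq (GRCm38.p6). The members and gene lists were chosen with earlier results of these data known, and gene lists were described by counts and medians. Named genes were the 10 members, called genes of the pathway lists (at most 3 per direction) with each list's most abundant gene, all receptor feedback partners, and the 3 genes nearest in pattern to Eif2ak3 and to Ddit3 among genes with mean CPM of at least 10. The scripts were tested on simulated data.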

Additional observations from a re-analysis of the deposited data

Results flagged for a closer look

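Xbp1 was picked out because its log2 ratio of mutant to control had opposite signs in the experimental groups, 0.10 in experimental group 1 and -0.15 in experimental group 2. Vcp was picked out for the same reason, with -0.23 and 0.068. Each ratio compares 1 mutant with 1 control, and the difference between experimental groups was not tested. Mutant 1 was picked out because 39.4% of its uniquely aligned reads fell outside annotated genes, above the control libraries (23.8 and 24.9%).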

How the results depend on the processing

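The 2 members called in the mutant became 1 (Atf5) in the quasi-likelihood test, 1 (Ppp1r15a) with no filter, and 0 with upper-quartile factors. Without the replicate block 0 members and 0 of the further pathway genes were called. RLE factors and keeping the tally lines gave 2 (Eif2ak3 and Ddit3), whereas CPM over 1 in all 4 samples and thinning gave 3 (Ppp1r15a in addition). Leaving out any single library, without the block and with the lone sample of a genotype assumed to vary like the other group, gave 0 to 0 members and 0 to 1 further pathway genes, which had 4 calls in the main analysis and 2 in the quasi-likelihood test and with no filter. The median log2 fold change of the members, -0.43, was -0.36 with upper-quartile factors and ranged from -0.45 (without control 1) to -0.23 (without mutant 1), with -0.38 without control 2, when libraries or pairs were left out, with -0.34 in experimental group 1 and -0.29 in experimental group 2 alone. Upper-quartile factors and no filter placed the median of all genes at 0.061 and 0.14, relative to which these values stand. With no filter, 2 rather than 4 members differed between experimental groups (Atf5 and Hspa5 lost). Of all 21975 genes tested with no filter, 4395 differed, so the share of members was like that over all genes. Xbp1 reversed to 0.042 with upper-quartile factors, and Xbp1 and Hspa5 to 0.57 and 0.25 without control 2 and to 0.26 and 0.13 without mutant 1. P4hb became -0.069 and Kdm1a -0.027 without mutant 2, and Vcp became 0.0086 without control 2 and 0.10 without mutant 1. The fits that left out a library had no block, so genotype and experimental group were not separated in them. Within experimental groups 1 and 2, the log2 ratios were 0.10 and -0.15 for Xbp1 and -0.27 and -0.20 for Hspa5. The cause of these shifts was not tested. The lowest count of a member in any library was 397, and precision was limited by 2 mice per genotype.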

Other observations

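Of the 103 further pathway genes, 24 were higher and 12 lower in experimental group 2, where 17.7% and 14.0% of all genes tested were higher and lower, so these shares were near those over all genes. Nupr1, a stress-induced chromatin protein, had 29.0 and 27.4 CPM in control 1 and mutant 1 and 271 and 219 CPM in control 2 and mutant 2 (log2 fold change 3.11, edgeR adjusted p = 2.96e-49). Slc7a11, the cystine transporter, had 13.1 and 12.2 CPM in control 1 and mutant 1 and 77.3 and 42.4 CPM in control 2 and mutant 2 (2.18, edgeR adjusted p = 1.42e-17). Both are targets of ATF4 and were named here after their values were seen. Atf4 itself had a log2 fold change of 0.34 between experimental groups and was not called (edgeR adjusted p = 0.257).

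The other eIF2α kinases were also measured. Eif2ak2, which encodes the double-stranded RNA sensor PKR, had 26.8 and 31.5 CPM in the controls and 39.4 and 46.2 CPM in the mutants, a log2 fold change of 0.55 ± 0.19 that missed the threshold (edgeR adjusted p = 0.0737). Eif2ak1, the haem-regulated kinase, had an adjusted p of 0.991 in the same edgeR test. Ern2, a relative of Ern1 found in mucous cells, had 0 and 23 counts in the controls and 69 and 33 counts in the mutants and was not called (edgeR adjusted p = 0.211).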
